A study of Mus musculus with 4 samples.

Results

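The genes described here are 41 cytosolic and mitochondrial chaperones, cochaperones and heat shock factors, chosen by gene symbol from the 54532 genes of the deposited count table. They hold the HSP70, HSP110, HSP40 and HSP90 families, the BAG nucleotide exchange factors, the cochaperones of HSP90, the small heat shock protein Hspb1, the heat shock factors Hsf1 and Hsf2, 5 mitochondrial chaperones and the 8 subunits of the CCT chaperonin. RNA came from mouse T helper 2 (Th2) cells of wild-type genotype, which the labels place in a bleomycin-induced model of systemic sclerosis (BLM-SSc), and every library shares that model. Naive CD4+ T cells were driven towards Th2 in culture with HU-308, a selective agonist of cannabinoid receptor 2, or with DMSO, the solvent control. On day 4 they were stimulated again through CD3 and CD28 with beads, and RNA was taken 12 h later. Each group has 2 libraries. The labels do not say whether these came from separate mice or cultures, or at which dose HU-308 was given. A p-value here therefore sets a difference only against the spread between these libraries, pooled in part over genes. No library came from untreated mice, from cells without the receptor or from cells that were not stimulated again.

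Chaperones bind unfolded or partly folded proteins and let them fold without clumping. HSP70 proteins do so in cycles of ATP hydrolysis that HSP40 (J-domain) proteins start and that HSP110 and BAG proteins reset by exchanging the nucleotide. HSP90 takes over late folding intermediates such as kinases and steroid receptors, and CCT, a closed ring in the cytosol, folds actin and tubulin. Mitochondria hold relatives of bacterial chaperones, the HSP60 (Hspd1) and HSP10 (Hspe1) chamber and the HSP70 Hspa9, and heat shock factors switch on many of these genes under stress. T cells that divide and secrete cytokines after stimulation have a high demand for protein synthesis and folding.

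The libraries held between 16145298 and 20479254 counted reads, with 20525 to 21319 genes detected. All 7 Th2 markers examined were read in every library, on a scale of CPM (counts scaled to a common depth), but their order between the groups differed. Cd3e was higher in both HU-308 libraries (164 and 176 CPM in DMSO, 211 and 227 CPM in HU-308), and Cd4 and Il1rl1 overlapped. Lower in both HU-308 libraries were Gata3 (493 and 486 against 385 and 302 CPM), Ccr4 (601 and 623 against 328 and 345 CPM), Il4 (26.4 and 27.8 against 10.9 and 9.71 CPM) and Il13 (20.5 and 30.1 against 2.44 and 1.48 CPM). The part of these differences in the chaperone values was not tested. The other marker lists summed to at most 13.8 CPM for CD8 T cells, 3.17 for B cells, 0.0594 for natural killer cells, 3.68 for fibroblasts and 1.78 for red cells, with Klrb1c, Pdgfra and Hbb-bs at 0. The 5 myeloid markers summed to 38.0 and 74.4 CPM in DMSO and to 27.2 and 59.8 CPM in HU-308, nearly all of it Adgre1, while Lyz2 was at 0 in all 4 libraries. That sum was higher in replicate 2 of each group, and its part in the results was not tested. In bulk RNA, fewer cells of a type and less RNA per cell cannot be told apart.

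Heat shock factors bind a heat shock element, which is built of GAA and TTC units in alternating orientation. It was searched for as 3 units, GAANNTTCNNGAA or TTCNNGAANNTTC, on both strands, where the patterns may overlap, in RefSeq promoter windows of 300 bases (250 before to 50 after the transcript start, build GRCm38.p6). Windows were used for 34 of the 41 genes. A match was held by 5 of these, Hspd1, Hspe1, Hsph1, Chordc1 and Dnajb6 (14.7%), against 179 of 27025 genes overall (0.662%). Hspd1 and Hspe1 share the same matched bases, so the 5 genes do not stand for 5 separate elements. Of all 32851 windows, 0.603% held a match. The search was exact, so an element with a changed base in a unit was not counted. Hspa1a, Hspa1b, Dnajb1 and Bag3 had windows without a match, which does not show that they lack an element. No window was used for Hspa8, Hspa9, Hsp90aa1, Hsp90ab1, St13, Hsf1 and Cct4, so whether these genes hold a match was not tested. The windows below are shown because the 5 genes that share this element had unlike values in the libraries, as described further on. Capitals mark the matched bases, which may join overlapping matches.
Hspe1, chr1:55087898-55088197, plus strand: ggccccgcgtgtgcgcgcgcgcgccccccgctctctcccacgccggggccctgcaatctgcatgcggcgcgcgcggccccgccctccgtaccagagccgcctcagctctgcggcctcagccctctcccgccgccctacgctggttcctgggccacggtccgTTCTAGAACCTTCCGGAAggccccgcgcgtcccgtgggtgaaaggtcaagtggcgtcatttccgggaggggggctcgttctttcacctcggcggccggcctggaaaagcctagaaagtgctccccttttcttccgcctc
Hsph1, chr5:149636266-149636565, minus strand: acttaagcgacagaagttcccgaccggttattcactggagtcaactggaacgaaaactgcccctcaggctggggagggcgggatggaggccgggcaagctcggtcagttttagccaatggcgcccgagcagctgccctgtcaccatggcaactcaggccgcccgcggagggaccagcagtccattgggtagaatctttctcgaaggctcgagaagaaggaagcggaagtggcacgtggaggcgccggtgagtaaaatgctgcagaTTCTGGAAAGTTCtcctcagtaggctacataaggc
Chordc1, chr9:18292017-18292316, plus strand: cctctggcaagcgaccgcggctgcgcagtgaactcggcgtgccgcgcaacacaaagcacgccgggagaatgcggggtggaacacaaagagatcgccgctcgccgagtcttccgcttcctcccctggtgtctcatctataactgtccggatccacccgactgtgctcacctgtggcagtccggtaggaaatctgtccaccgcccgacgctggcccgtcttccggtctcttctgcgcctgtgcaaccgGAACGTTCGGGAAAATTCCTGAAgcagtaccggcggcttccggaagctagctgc
Dnajb6, chr5:29735648-29735947, plus strand: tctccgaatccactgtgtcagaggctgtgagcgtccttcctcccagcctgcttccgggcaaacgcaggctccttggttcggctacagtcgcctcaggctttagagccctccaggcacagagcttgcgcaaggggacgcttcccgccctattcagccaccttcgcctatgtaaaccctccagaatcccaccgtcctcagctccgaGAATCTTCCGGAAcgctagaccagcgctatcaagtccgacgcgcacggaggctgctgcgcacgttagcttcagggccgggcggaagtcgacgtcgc
Hspd1, matched bases only, minus strand: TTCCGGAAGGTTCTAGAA

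Hspd1 and Hspe1 are read from opposite strands, and Hspd1 has 2 RefSeq start sites. One lies 216 bases from the Hspe1 start, and its window chr1:55087883-55088182 shares 285 bases with that of Hspe1. The other, with the window chr1:55088194-55088493, lies at the gene end given below, within Hspe1, and holds no match. The same 18 bases are therefore matched in the first Hspd1 window and in that of Hspe1, at -144 to -127 from that Hspd1 start and at -89 to -72 from the Hspe1 start. In the windows shown, the match lies at 15 to 27 for Hsph1 and at -46 to -34 for Dnajb6. From the other start site of each gene, the same bases lie at 36 to 48 and at -127 to -115. For Chordc1, 3 overlapping matches span -4 to 18. A match is a run of letters and does not show that a factor was bound.

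Across the whole set, most chaperones stood lower in the HU-308 libraries, led by the mitochondrial Hspd1 and Hspa9, the HSP110 genes Hsph1 and Hspa4, and the CCT subunit Cct6a, but none passed the test over all genes. Of the 40 genes with enough reads to be tested, 33 had a log2 fold change below 0, where 47.9% of all 14316 tested genes did, and 7 had one above 0 (background 52.1%). Their median log2 fold change was -0.35, or 78.5% of the DMSO level, against 0.02 for all tested genes. Without DMSO replicate 1 the median was -0.19. Among genes whose mean log2 CPM reached 5, the median was -0.41 for 34 chaperones and -0.06 for 5741 genes. Of these, 30 chaperones and 3281 genes had a log2 fold change below 0. Together the 41 genes took 1.36% of reads (95% Wilson interval 1.36 to 1.37%) and 1.08% (1.08 to 1.08%) in the DMSO libraries, and 1.01% (1.003 to 1.013%) and 0.854% (0.849 to 0.858%) in the HU-308 libraries. These intervals cover counting error only.

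With edgeR's quasi-likelihood test and Benjamini-Hochberg adjustment at 0.05, 0 of 40 chaperones were called, where 0.314% of all tested genes were called, 0.231% as lower and 0.0838% as higher. The lowest adjusted p of the set was 0.0675, for Hspa9. At an unadjusted p under 0.05, 16 genes were lower with HU-308 and 0 were higher, against 9.97% and 8.79% of all tested genes. Both HU-308 libraries lay below both DMSO libraries for 24 genes, where 25.4% of all tested genes did so, and above both for 2, Dnajb1 and Hspa4l, against 25.9%. Among genes whose mean log2 CPM reached 5, they lay below for 24 of 34 chaperones and for 2039 of all 5741 genes. At that level they lay above for 2 chaperones and for 1210 genes. DESeq2 called 7 of the 38 genes to which it gave an adjusted p, all lower with HU-308 (background 4.56% lower and 2.49% higher): Hspa9, Cct6a, Hsph1, Hspa4, Hspd1, Ptges3 and Dnaja2. The authors' deposited table calls 7 of 41 lower (background 2.07%) and 0 higher (1.06%), with Hsp90aa1 in place of Dnaja2 and the other 6 shared. Without DMSO replicate 2, edgeR called 4 lower, Hspa9, Hspd1, Hsph1 and Cct6a, where 1.62% of all 15043 genes then tested were called lower.

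**Figure D1:**
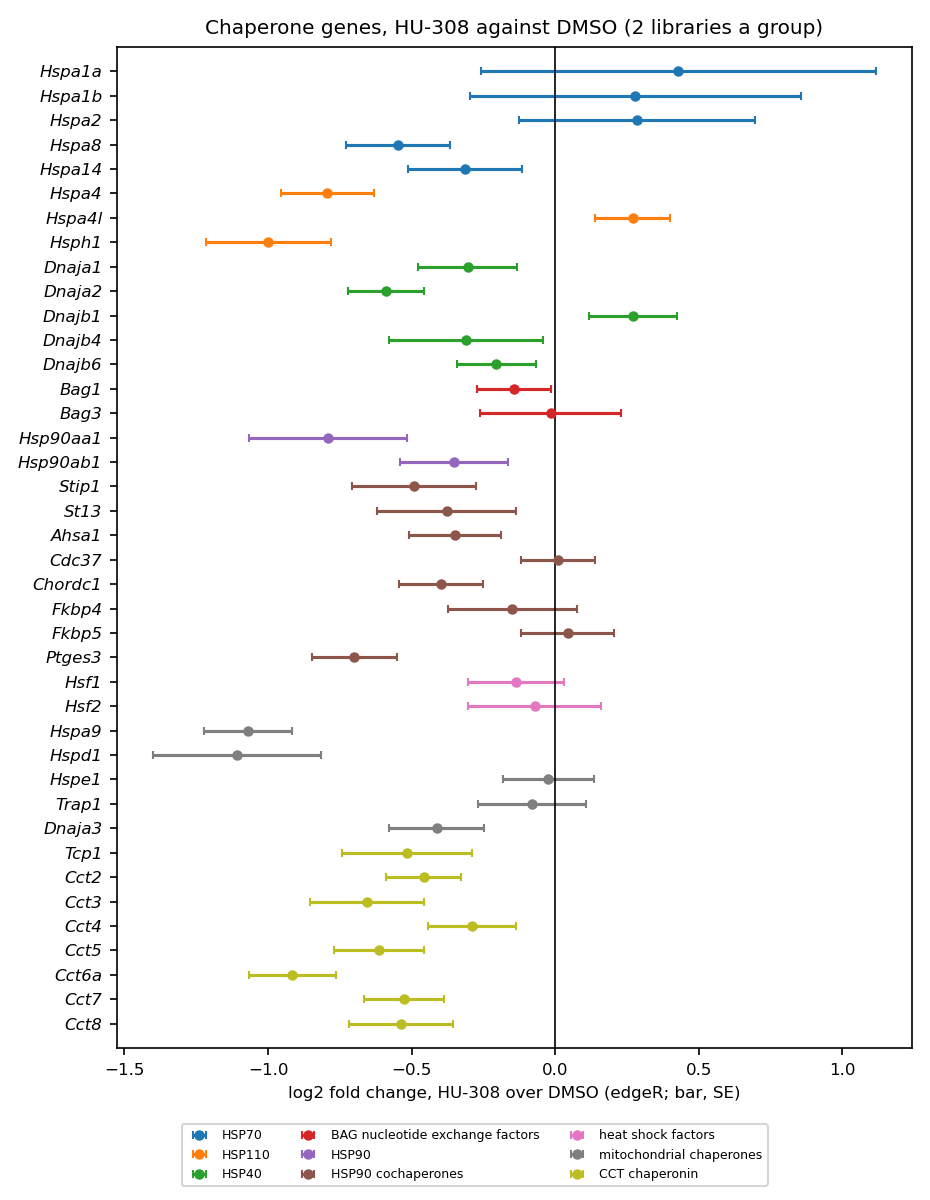
Log2 fold change of HU-308 over DMSO for each of the 40 tested chaperones, grouped by role, with bars of 1 SE from edgeR (2 libraries a group). Most points lie left of 0, from -1.11 for Hspd1 to 0.43 for Hspa1a, whose bar crosses 0 and which stood at -0.75 without HU-308 replicate 1.

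**Figure D2:**
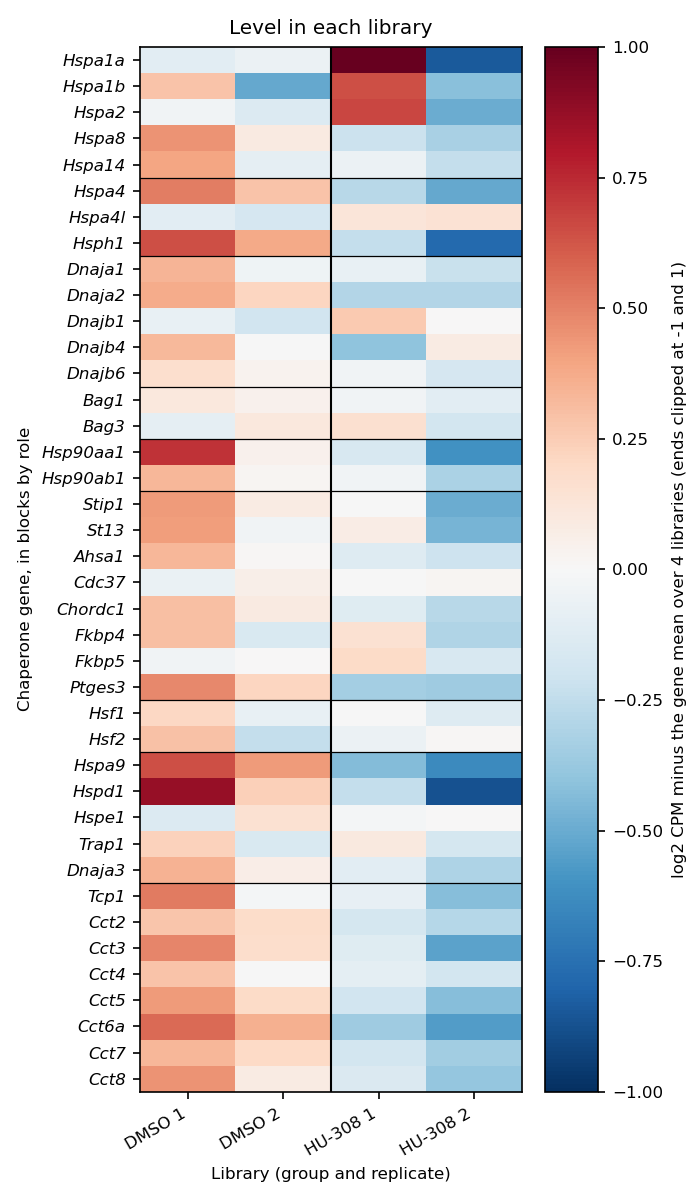
TMM-scaled log2 CPM of each chaperone in each of the 4 libraries, minus the mean of that gene over the 4, with colours clipped at 1 in each direction. For most genes DMSO replicate 1 is the highest library and HU-308 replicate 2 the lowest.

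Of the HSP70 proteins of the cytosol, Hspa8 (HSC70, chr9:40800984-40810087 in GRCm38), which is made without stress, carried nearly all the signal. It stood at 3119 and 2421 CPM in DMSO and at 1962 and 1825 CPM in HU-308, with replicates 1 and 2 in that order here and below. The groups did not overlap, and the log2 fold change was -0.55 ± 0.18 (SE, n = 2 and 2; edgeR adjusted p = 0.203). Between replicates, the second was lower than the first by 0.37 (log2) in DMSO and by 0.10 in HU-308. The stress-induced pair Hspa1a and Hspa1b was close to silent. Hspa1a had 12 and 14 reads in DMSO and 25 and 7 in HU-308, and Hspa1b had 20 and 13 against 25 and 12. The groups overlapped for both genes, whose near-identical sequences make the division of reads between them uncertain. In FPKM (fragments scaled by gene length and library depth), the pair together amounted to 0.000889 and 0.000849 of the Hspa8 level in DMSO and to 0.00226 and 0.000927 in HU-308. Hspa2, best known from the testis, ranged from 4.44 to 9.98 CPM, and Hspa14, which acts at the ribosome, from 59.6 to 92.3 CPM, with overlapping groups for both. Hspa14 shares 7.91% of its exon bases with Gm45902, so its count is less certain.

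HSP110 proteins are HSP70 relatives that release ADP from HSP70. Hspa4 (chr11:53259814-53300457) stood at 811 and 693 CPM in DMSO and at 469 and 399 CPM in HU-308. The HU-308 libraries were both lower, 1.73-fold on the group means, with a log2 fold change of -0.79 ± 0.16 (edgeR adjusted p = 0.104; DESeq2 adjusted p = 0.0048). The replicates differed by 0.23 in DMSO and 0.24 in HU-308 on the log2 scale, each a fraction of the difference between groups. Hsph1 (chr5:149614287-149636376), which is also induced by heat, stood at 197 and 164 CPM in DMSO and at 107 and 73.7 CPM in HU-308. The groups did not overlap, and the log2 fold change was -0.999 ± 0.218 (edgeR adjusted p = 0.114; DESeq2 adjusted p = 0.00325), beside a replicate difference of 0.54 within HU-308. Hspa4l, the third family member, stood at 47.3 and 45.4 CPM in DMSO and at 55.4 and 56.3 CPM in HU-308, the opposite order, with a log2 fold change of 0.27 ± 0.13 (edgeR adjusted p = 0.335). In FPKM, Hspa4l amounted to 0.0273 and 0.0307 of Hspa4 in DMSO and to 0.0553 and 0.0662 in HU-308. Those ratios did not overlap, though with 2 libraries against 2 an exact permutation test cannot give a p below 0.333.

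J-domain proteins hand substrates to HSP70 and start its ATP hydrolysis. Dnaja2, a general cytosolic member, stood at 205 and 184 CPM in DMSO and at 129 and 129 CPM in HU-308. It was lower in both HU-308 libraries, which were nearly equal, with a log2 fold change of -0.59 ± 0.13 (edgeR adjusted p = 0.120; DESeq2 adjusted p = 0.0420). Dnajb1, a heat-induced HSP40, stood in the opposite order, with 65.9 and 60.7 CPM in DMSO and 83.3 and 69.3 CPM in HU-308. Its log2 fold change of 0.27 ± 0.15 did not pass (edgeR adjusted p = 0.395), and the replicates within HU-308 differed by almost as much, 0.27; without HU-308 replicate 1 it was 0.13. Dnaja1 and Dnajb6 were lower in both HU-308 libraries, with log2 fold changes of -0.30 (-0.12 without DMSO replicate 1) and -0.20, and Dnajb4 overlapped between groups at 6.71 to 11.1 CPM. Dnaja1 shares 7.05% of its exon bases with Smu1 on the opposite strand, and the strand setting of the counting is not given in the sources used here. Among the BAG factors, Bag1 stood at 84.4 and 80.7 CPM in DMSO and at 76.6 and 72.9 CPM in HU-308, a small step that did not overlap (log2 fold change -0.14 ± 0.13). Bag3, a stress-induced member, stood at 7.27 and 8.32 against 8.61 and 6.81 CPM, with overlapping groups.

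HSP90 was the most abundant family per length. Hsp90ab1 (chr17:45567775-45573271), the form made at all times, had 899.7 and 727.5 FPKM in DMSO and 701.4 and 567.7 FPKM in HU-308. Its groups did not overlap, yet the replicates differed by 0.31 in DMSO and 0.29 in HU-308, against a log2 fold change of -0.35 ± 0.19 (edgeR adjusted p = 0.370), which was -0.21 once DMSO replicate 1 and -0.22 once HU-308 replicate 2 was left out. Hsp90aa1 (chr12:110690605-110702728), the inducible form, had 352.6 and 220.0 FPKM in DMSO and 191.0 and 138.4 FPKM in HU-308. Its CPM values were 1393 and 868 against 754 and 553, with DMSO replicate 1 well above the other 3 libraries. The log2 fold change was -0.79 ± 0.27 (edgeR adjusted p = 0.219; DESeq2 adjusted p = 0.0630), beside a replicate difference of 0.68 within DMSO. Leaving out DMSO replicate 1 gave -0.43, and leaving out the other DMSO library gave -1.09. In the authors' deposited table, Hsp90aa1 has a log2 fold change of -0.80 and an adjusted p of 0.0464. The ratio of Hsp90aa1 to Hsp90ab1 in FPKM was 0.392 and 0.302 in DMSO and 0.272 and 0.244 in HU-308.

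The 8 HSP90 cochaperones were mixed, with 4 lower in both HU-308 libraries (background 25.4%), 4 overlapping and a median log2 fold change of -0.36. Ptges3 (p23), which holds HSP90 in its closed state, stood at 167 and 139 CPM in DMSO and at 94.5 and 93.6 CPM in HU-308. The HU-308 libraries were lower and close to each other, with a log2 fold change of -0.70 ± 0.15 (edgeR adjusted p = 0.112; DESeq2 adjusted p = 0.0181). A processed copy, Ptges3-ps, took 22.5% of the reads of both, so the division of reads is less certain. Stip1 (HOP), which joins HSP70 to HSP90, stood at 238 and 187 CPM in DMSO and at 177 and 125 CPM in HU-308, and its replicates differed by as much as the groups (0.50 within HU-308, -0.49 between, and -0.27 without HU-308 replicate 2). Chordc1, whose promoter window holds 3 heat shock element matches, stood at 164 and 142 against 122 and 110 CPM, without overlap (-0.40 ± 0.15; edgeR adjusted p = 0.234). Ahsa1, which speeds the HSP90 ATPase, was lower in both HU-308 libraries (-0.35 ± 0.16, and -0.20 without DMSO replicate 1). The groups overlapped for St13, which stabilises HSP70 complexes, for Cdc37, which brings kinases to HSP90, and for the peptidyl-prolyl isomerases Fkbp4 and Fkbp5. Cdc37 stood between 179 and 195 CPM in all 4 libraries, and Fkbp5, a target of glucocorticoids, at 247 and 254 CPM in DMSO and at 289 and 227 CPM in HU-308.

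The heat shock factors themselves showed no separation. Hsf1, the main stress-activated factor, stood at 41.1 and 34.0 CPM in DMSO and at 35.5 and 32.7 CPM in HU-308 (log2 fold change -0.14 ± 0.17; edgeR adjusted p = 0.689). Hsf2 stood at 20.7 and 14.3 CPM in DMSO and at 16.3 and 17.1 CPM in HU-308 (-0.07 ± 0.23; edgeR adjusted p = 0.898). HSF1 is switched on after translation, so its transcript level is no readout of its activity. Hspb1 (HSP27), a small heat shock protein that holds unfolded proteins without ATP, had 8 and 2 reads in DMSO and 1 and 3 in HU-308 and was not tested. Of the 5 genes with a heat shock element match, Hsph1, Hspd1, Chordc1 and Dnajb6 stood lower in both HU-308 libraries and Hspe1 did not. Of all 40 tested chaperones 60.0% stood lower in both, and of all tested genes 25.4%. Whether the element has a part in these values was not tested.

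The mitochondrial chaperones held the 2 largest differences of the set and one gene that stood almost level. Hspa9 (mortalin), the HSP70 of the mitochondrial matrix that also draws proteins in through the inner membrane, stood at 468 and 403 CPM in DMSO and at 222 and 193 CPM in HU-308. It was 2.10-fold lower on the group means, with a log2 fold change of -1.07 ± 0.15 (edgeR adjusted p = 0.0675; DESeq2 adjusted p = 2.22e-05), and replicates differed by only 0.22 and 0.20. In the authors' deposited table its adjusted p is 4.45e-05.

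Hspd1 (HSP60, chr1:55077835-55088243) stood at 390 and 252 CPM in DMSO and at 181 and 117 CPM in HU-308. Its groups did not overlap, and the log2 fold change was -1.11 ± 0.29 (edgeR adjusted p = 0.149; DESeq2 adjusted p = 0.00613). Its replicates differed by 0.63 in each group, the second lower each time. Hspe1 (HSP10, chr1:55088132-55091307), the lid of the same folding chamber, stood at 42.1 and 51.4 CPM in DMSO and at 45.6 and 46.3 CPM in HU-308 (log2 fold change -0.02 ± 0.16; edgeR adjusted p = 0.952). The ratio of Hspd1 to Hspe1 in FPKM was 5.17 and 2.74 in DMSO and 2.22 and 1.41 in HU-308, without overlap. The pair share 112 exon bases on opposite strands, 4.24% of Hspd1 and 7.60% of Hspe1, and 5 named pseudogenes of Hspd1 took 3.47% of the reads of gene and copies. Trap1, the mitochondrial HSP90, stood at 90.3 and 69.2 CPM in DMSO and at 82.5 and 68.3 CPM in HU-308, with overlap. Dnaja3, the J-domain partner of Hspa9, was lower in both HU-308 libraries (63.6 and 52.3 against 46.6 and 40.4 CPM; log2 fold change -0.41 ± 0.17, edgeR adjusted p = 0.265). Dnaja3 shares 3.91% of its exon bases with Coro7 on the opposite strand, which had 55132 reads. It shares 4.09% with Vasn on the same strand, which had 7604 reads, so its count is less certain.

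**Figure D3:**
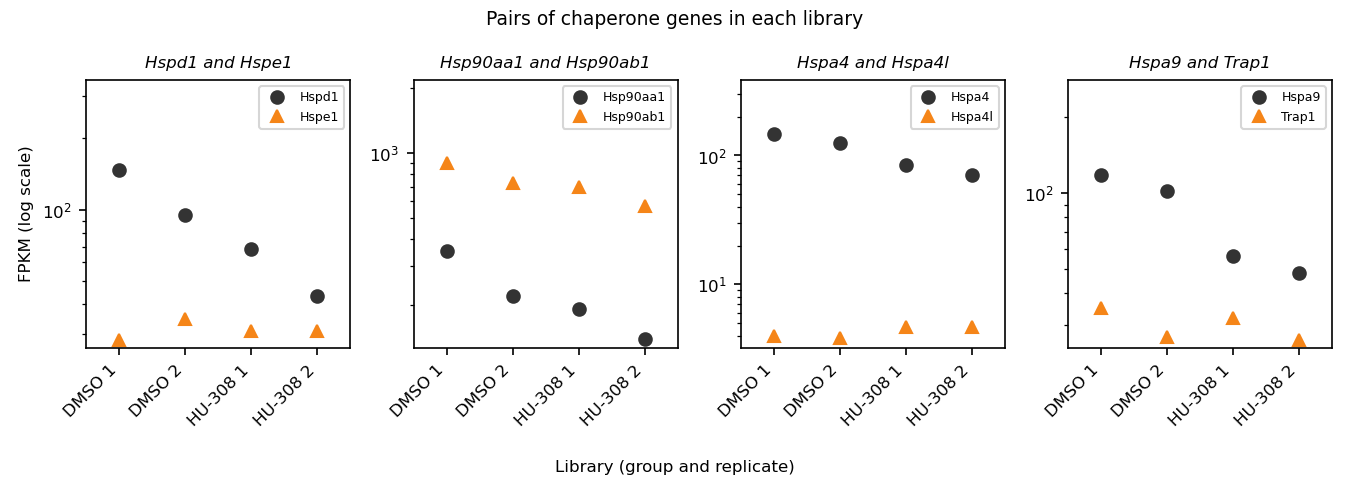
FPKM on a log axis in each of the 4 libraries for 4 pairs of related chaperones (Hspd1 with Hspe1, Hsp90aa1 with Hsp90ab1, Hspa4 with Hspa4l, Hspa9 with Trap1). Hspd1, Hsp90aa1, Hspa4 and Hspa9 lie lower in both HU-308 libraries, while Hspe1 and Trap1 overlap and Hspa4l lies slightly higher.

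CCT is assembled from the products of 8 genes in equal numbers. All 8 stood lower in both HU-308 libraries, with a median log2 fold change of -0.53. The background was 25.4%, or 2039 of the 5741 genes whose mean log2 CPM reached 5. At an unadjusted p under 0.05, 6 were lower (background 9.97%), all but Tcp1 and Cct4. Cct6a was furthest from its DMSO level, at 268 and 231 CPM in DMSO and 141 and 123 CPM in HU-308. Its log2 fold change was -0.92 ± 0.15 (edgeR adjusted p = 0.0804; DESeq2 adjusted p = 0.000638), and replicates differed by 0.21 and 0.20. Cct6a shares 12.5% of its exon bases with Psph on the opposite strand, which had 2221 reads over the 4 libraries. Cct4 was nearest, at 254 and 207 CPM in DMSO and at 194 and 184 CPM in HU-308 (-0.29 ± 0.15; edgeR adjusted p = 0.366), with -0.15 without DMSO replicate 1.

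Between those ends, Cct3 stood at 267 and 214 CPM in DMSO and at 174 and 131 CPM in HU-308 (log2 fold change -0.66 ± 0.20; edgeR adjusted p = 0.178). Cct5 stood at 341 and 290 against 223 and 190 CPM (-0.61 ± 0.16; edgeR adjusted p = 0.142). The groups did not overlap for either subunit. Cct2, the subunit with the highest FPKM, had 134.2 and 126.3 FPKM in DMSO and 98.3 and 90.3 FPKM in HU-308 (-0.46 ± 0.13; edgeR adjusted p = 0.163). Cct7, Cct8 and Tcp1 had log2 fold changes of -0.53, -0.54 and -0.52, and that of Tcp1 was -0.24 without DMSO replicate 1. Tcp1 shares 11.4% of its exon bases with Acat3, on the opposite strand.

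Set against the median FPKM of the 8 subunits (87.0 and 66.3 in DMSO, 56.2 and 47.3 in HU-308), Cct6a amounted to 0.847 and 0.960 in DMSO and to 0.693 and 0.707 in HU-308. For Cct4 the order was opposite, with 0.693 and 0.742 in DMSO and 0.820 and 0.909 in HU-308. The other 6 subunits overlapped between groups on this scale. The highest subunit was 3.22 and 3.78 times the lowest in the DMSO libraries and 3.61 and 4.48 times in the HU-308 libraries.

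**Figure D4:**
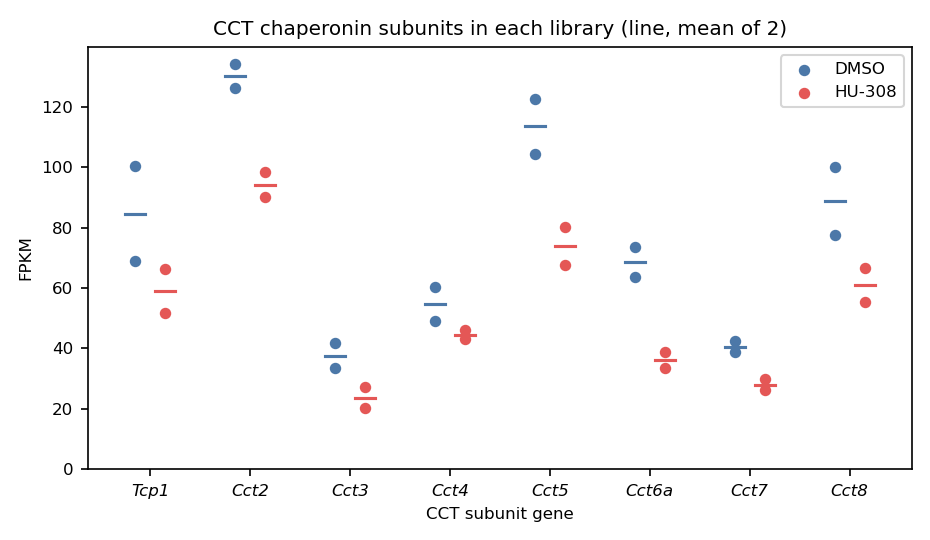
FPKM of the 8 CCT subunit genes in each of the 4 libraries, as points, with a line at each group's mean. For every subunit both HU-308 points lie below both DMSO points, and the gap is widest relative to its level for Cct6a.

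The differences between libraries of the same group ran in one direction for most chaperones. Replicate 2 lay below replicate 1 for 35 of 40 genes in DMSO, where 50.0% of all tested genes did so. In HU-308 this held for 34 genes (background 49.1%), and in both groups for 31 (background 35.0%). The median log2 difference of replicate 2 from replicate 1 was -0.27 in DMSO and -0.20 in HU-308 for the chaperones, and close to 0 for all tested genes. It ranged over the chaperones from -0.80 to 0.29 in DMSO and from -1.84 to 0.49 in HU-308, the lowest values belonging to the low-count Hspa1b in DMSO and Hspa1a in HU-308.

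For 22 of the 40 genes the difference between groups was larger than both differences within groups, against 39.5% of all tested genes. The difference between groups was 3.72 to 4.92 times the larger replicate difference for Hspa9, Hspa4l, Cct2, Cct6a and Dnaja2. For Stip1, Tcp1 and Cct4 a replicate difference was slightly larger than the group difference. The levels of the set thus also differ between libraries that received the same treatment. DMSO replicate 1 had the highest summed FPKM for each of the 6 largest role groups and HU-308 replicate 2 the lowest. For the mitochondrial group the sums were 345.0 and 271.8 FPKM in DMSO and 199.2 and 159.1 FPKM in HU-308. For CCT they were 675.6 and 562.3 against 453.7 and 387.8 FPKM.

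**Figure D5:**
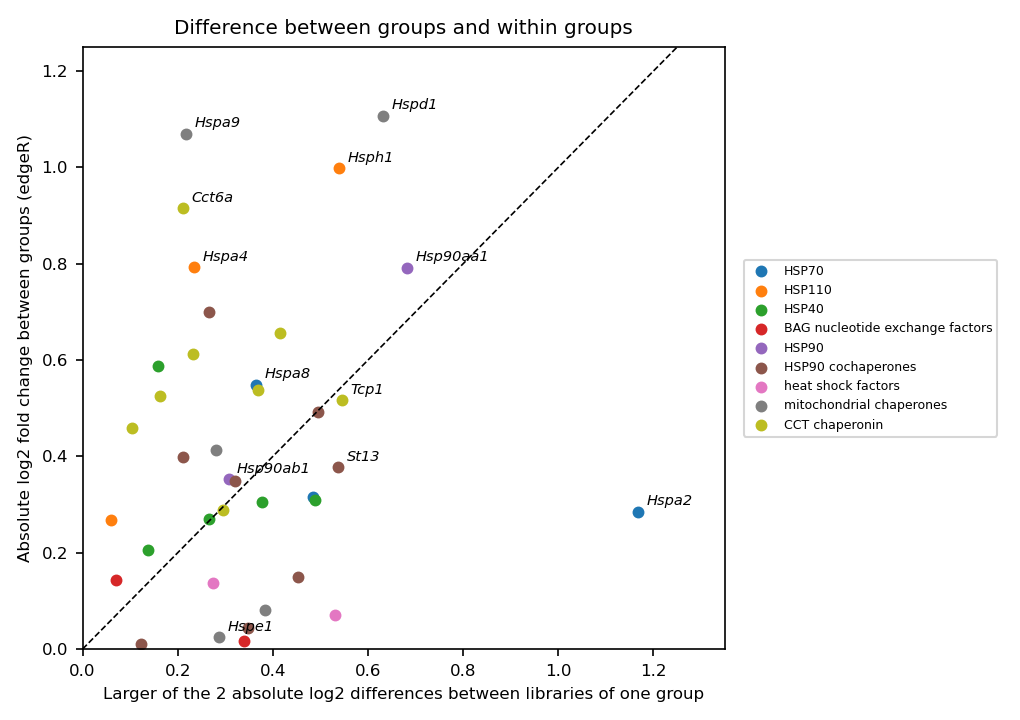
For each tested chaperone, the larger of the 2 absolute log2 differences between replicates of one group (x axis) against the absolute log2 fold change between groups (y axis); the dashed line marks equality, and Hspa1a and Hspa1b are left out. The 22 genes above the line include Hspa9, Hspa4, Cct6a and Hspd1, the last at a replicate difference of 0.63.

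Other parts of the chaperone network were read from lists of further cofactors and of endoplasmic reticulum (ER) chaperones. Of 55 further genes (prefoldin, other HSP40 and HSP90 cochaperones, mitochondrial cofactors and proteases), 50 were tested, edgeR called 0, and their median log2 fold change was -0.07. Unadjusted, 5 were lower (background 9.97%) and 3 higher (background 8.79%), and DESeq2 called 3 lower (background 4.56%), Dnajc2, Dnajc21 and Tomm70a. These counts are near the shares of all genes. The lowest was Dnajc2, a ribosome-bound J-domain protein, at 171 and 157 CPM in DMSO and at 82.5 and 71.0 CPM in HU-308 (log2 fold change -1.10 ± 0.15; edgeR adjusted p = 0.0646). Tomm70a, the outer-membrane receptor that takes mitochondrial precursors from HSP70 and HSP90, stood at 230.4 and 178 against 127 and 114 CPM (-0.76 ± 0.17; edgeR adjusted p = 0.121). The highest was Hscb, a J-domain protein of iron-sulphur cluster transfer, at 4.33 and 4.70 against 6.77 and 10.7 CPM (0.95 ± 0.31; edgeR adjusted p = 0.196).

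The 16 ER chaperones had a median log2 fold change of -0.50, all below 0 (background 47.9%). Of these, 14 were lower in both HU-308 libraries (background 25.4%) and 12 were lower at an unadjusted p under 0.05 (9.97%), while edgeR called 0 lower (0.231%) and DESeq2 5 (4.56%). Hspa5 (BiP), the HSP70 of the ER, had a log2 fold change of -1.06 ± 0.15 (edgeR adjusted p = 0.0664), beside -1.07 ± 0.15 for Hspa9, its mitochondrial relative. Hsp90b1, the ER form of HSP90, stood at 1029 and 1026 CPM in DMSO and at 564 and 623 CPM in HU-308 (-0.79 ± 0.14; edgeR adjusted p = 0.0861). Replicate 2 lay below replicate 1 in both groups for 2 of these 16 genes, against 31 of the 40 cytosolic and mitochondrial ones.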

How the data were processed

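RNA-seq of 4 libraries was used, 2 per group by the labels' treatment. Per the submitters' processing notes, the authors worked on GRCm38 (mm10) with the tools DESeq2 1.4.5, Bowtie2 2.3.4.3 and RSEM 1.3.1; the role of each, the annotation release and the strand setting are not given in the sources used here. Per the labels' protocols, libraries were made with a SMARTER kit from TRIzol RNA. The deposited counts are unnormalized whole numbers per gene, per the file headers. The deposited FPKM divide by gene length and by a scaled depth, which the authors set for each library. The deposited signal columns, the authors' group means of scaled counts, entered no result. The authors' log2 fold change, p-values and adjusted p-values were copied from the deposited table.

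Counts were tested in R 4.3.3 with edgeR 4.0.16: filterByExpr (minimum count 10, minimum total 15) kept 14316 genes, TMM scaled the libraries, and the quasi-likelihood F test compared HU-308 with DMSO, unpaired, with Benjamini-Hochberg adjustment over all tested genes at 0.05. CPM are TMM-scaled; an SE is the absolute log2 fold change over the square root of F. The common biological coefficient of variation was 19.8%, with 2 residual degrees of freedom. Alternatives were other scaling, other filters, DESeq2 1.42.0, voom and FPKM fits in limma 3.58.1 (pseudocounts 1 and 0.1), a replicate block and each library left out. Exon overlaps and coordinates came from GENCODE, and promoters from RefSeq. Deposited coordinates equal GENCODE for 40 of the 41 genes (not Stip1). Deposited gene lengths equal the GENCODE exon bases for 39, not for Stip1 or for Hspa9 (3932 deposited against 4310 bases). Steps were tested on simulated data. Figures used Python 3.11.15 with matplotlib 3.10.9.

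The genes and lists were chosen with earlier results of these data known. Values per library are given for the 10 largest changes, the 5 highest FPKM, the CCT extremes, set members of each role and the extremes of the further list; other genes are given by range or fold change.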

Additional observations from a re-analysis of the deposited data

How the results depend on the processing

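No chaperone passed edgeR's test under RLE size factors, library size only, a minimum of 1 CPM in 2 libraries, voom or either FPKM fit; 5 passed with no low-count filter, 7 with DESeq2 and 0 to 4 with 1 library left out. All genes called numbered 45, and 20 with library size only, 561 with no filter, 28 with the CPM minimum, 813 with DESeq2, 0 and 0 by FPKM at pseudocounts 1 and 0.1 (2625 and 2629 unadjusted), and 37 to 337 with 1 library left out. The cause of these differences was not tested. With a replicate block, 26 chaperones (24 lower, 2 higher, where the background was 17.1% and 16.7%) and 4839 genes passed. The numbers pair samples by no label and would give only 2 pairs. Across all tested genes, the replicate difference in DMSO and that in HU-308 correlated at 0.465. The median of the chaperones ranged from -0.50 (without DMSO replicate 2) to -0.19 (without DMSO replicate 1), and was -0.23 with library size only, where the all-gene median shifted by 0.12. The count below 0 ranged from 31 to 37 with 1 library left out and was 29 with library size only; this count was chosen after seeing the data.

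Of 519 recomputed values, 458 kept direction and side of the threshold, 42 passed newly and 19 reversed, in 10 genes; 30 genes kept their sign under all 13 alternatives. Library size only turned Bag3 (0.10), Hsf2 (0.0462), Hspe1 (0.0943) and Trap1 (0.0374) positive. Leaving out 1 library at a time gave -0.19 to 0.14 for Bag3, -0.0703 to 0.0745 for Cdc37, -0.39 to 0.0761 for Fkbp4, -0.14 to 0.21 for Fkbp5, -0.31 to 0.20 for Hsf2, -0.75 to 1.07 for Hspa1a, -0.34 to 0.71 for Hspa1b, -0.41 to 0.75 for Hspa2, -0.18 to 0.13 for Hspe1 and -0.26 to 0.10 for Trap1. The simulated data held changes of known size, but the share of them that was called is not reported here.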
